A study of Homo sapiens with 4 samples.

Results

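The KRAB zinc finger gene clusters of human chromosome 19 were described by their H3K9me3 peaks in U2OS cells, an established osteosarcoma line. They were taken as 8 stretches of hg19, fixed by position and numbered here from the short arm to the long arm: 9.2 to 10.0 Mb (cluster 1), 11.6 to 12.8 Mb (cluster 2), 19.7 to 24.4 Mb (cluster 3), 34.9 to 35.5 Mb (cluster 4), 36.6 to 38.5 Mb (cluster 5), 44.2 to 45.0 Mb (cluster 6), 52.0 to 54.0 Mb (cluster 7) and 56.1 to 59.0 Mb (cluster 8). Together they span 14.9 Mb. The rest of chromosome 19, 40.6 Mb up to the last peak, was their comparison, without the centromeric stretch from 24.4 to 28 Mb. A peak belonged to a cluster if it shared at least 1 bp with it, which gave 1507 of 326674 peaks (0.461%) in list 1 and 1346 of 264919 (0.508%) in list 2, counted over chromosomes 1 to 22 and X.

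The series holds 2 samples precipitated with an antibody against H3K9me3 and 2 input samples without antibody, all from cross-linked U2OS cells labelled KRAB-IDR3-TCF3 in every sample title, a name the labels leave unexplained. The deposited values are 2 broad peak lists, called list 1 and list 2. The labels tie list 1 to both input samples and list 2 to both antibody samples, yet every peak name in either list begins with IP. Neither list was therefore assigned to a group, and no comparison of antibody with input was made. Each value below belongs to 1 list, has no replicate error and could not be tested across replicates. Read counts are not part of a peak list, so the depth is unknown.

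KRAB zinc finger proteins bind DNA through arrays of C2H2 zinc fingers. Their KRAB domain recruits the corepressor TRIM28 (KAP1), which brings the methyltransferase SETDB1 to chromatin, and the H3K9me3 that SETDB1 deposits is bound by HP1 proteins. The genes of this family multiplied by tandem duplication, and their clusters on chromosome 19 are known as regions of broad H3K9me3 in many human cell types. The series title links how densely this mark lies to how stable the genomic contacts of HP1a condensates are. The quantity described here is how densely peaks lie.

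Most genes counted between the first and last zinc finger gene of each cluster are zinc finger genes. Both end genes are zinc finger genes by choice. Genes between them and the borders of the stretch were not counted, so the counts do not describe the whole stretch. Clusters were matched to genes from general knowledge of which genes flank them, because RefSeq's gene table is on another build, GRCh38.p14. From it only the order of genes was taken. Symbols that begin with ZNF, ZFP, ZSCAN, ZIM or ZIK made up 227 of the 261 named protein-coding genes between these flanking genes, and chromosome 19 as a whole held 261 of the 555 such symbols on chromosomes 1 to 22 and X. Not all of these genes encode a KRAB domain, and none was sorted by it. Chromosome 19 symbols outside the 227 can lie in the rest of chromosome 19, which was not cleared of zinc finger genes. All 24 genes from ZNF627 to ZNF791 (cluster 2), all 5 from ZNF302 to ZNF792 (cluster 4), all 29 from ZNF565 to ZNF573 (cluster 5) and all 20 from ZNF283 to ZNF180 (cluster 6) were zinc finger genes. The count was 37 of 38 from ZNF101 to ZNF254 (cluster 3), 11 of 15 from ZNF317 to ZNF846 (cluster 1), 38 of 52 from ZNF175 to ZNF813 (cluster 7) and 63 of 78 from ZNF787 to ZNF446 (cluster 8). Genes without such a symbol included olfactory receptors in cluster 1 and the imprinted gene PEG3 in cluster 8. The count went by symbol only, so it misses zinc finger genes of other names, PEG3 among them.

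Promoters of the clusters differed in their content of CG, the dinucleotide at which DNA is methylated. RefSeq promoters on GRCh38.p14, 250 bases before to 50 after the gene start, were found for 195 of the 227 genes. They held a median of 20 CG (quartiles 14 and 25), against 21 (9 and 31) in 945 promoters of other chromosome 19 genes. At least 15 CG stood in 71.3% of the cluster promoters, 63.9% of the other chromosome 19 promoters and 48.9% of all 27195 promoters in the table. CG reads the same on both strands, so each site counted once. By cluster the medians were 18, 16, 10, 26, 22, 18, 25 and 23 from cluster 1 to cluster 8, so the 29 promoters of cluster 3 were the poorest in CG. Whether a peak covers a given promoter was not analysed here, since promoters and peaks are on different builds. A promoter at its cluster's median is shown for cluster 5, the most covered cluster in both lists, and for cluster 3, the least covered, with each CG in capitals. ZNF461 of cluster 5 holds 22 CG in 300 bases and ZNF100 of cluster 3 holds 10.
ZNF461: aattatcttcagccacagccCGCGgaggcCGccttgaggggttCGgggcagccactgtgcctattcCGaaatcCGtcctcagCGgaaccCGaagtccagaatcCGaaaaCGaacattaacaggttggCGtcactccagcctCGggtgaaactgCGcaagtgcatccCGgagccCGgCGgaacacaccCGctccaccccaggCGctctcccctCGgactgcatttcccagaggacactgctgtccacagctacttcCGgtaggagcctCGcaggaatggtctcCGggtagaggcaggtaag
ZNF100: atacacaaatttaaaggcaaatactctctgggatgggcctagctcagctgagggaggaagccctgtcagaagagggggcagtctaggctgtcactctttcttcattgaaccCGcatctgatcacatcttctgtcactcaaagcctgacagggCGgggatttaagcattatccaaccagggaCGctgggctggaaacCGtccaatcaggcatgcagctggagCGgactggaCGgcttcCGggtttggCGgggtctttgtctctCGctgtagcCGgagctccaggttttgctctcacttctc

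Peaks covered the clusters more densely than the rest of chromosome 19 in both lists. In list 1 they covered 60.4% of the clusters and 34.0% of the rest, a ratio of 1.77. In list 2 they covered 47.3% of the clusters and 20.4% of the rest, a ratio of 2.32. The clusters made up 26.8% of the length compared. On 25.2% of the span of chromosome 19 they held 38.9% (list 1) and 45.4% (list 2) of its covered base pairs. Genome-wide, on chromosomes 1 to 22 and X, peaks of list 1 covered 45.0% and those of list 2 covered 25.2%, so the rest of chromosome 19 lay below the genome and the clusters lay above it.

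Cluster 3, the largest with 4.7 Mb, stood apart from the other 7. Without it the clusters were covered 73.9% in list 1 and 62.9% in list 2, or 2.17 and 3.09 times the share of the rest. Cluster 3 itself was covered 30.9% and 13.3%, which was 0.909 and 0.654 times the rest. The other 7 clusters were thus covered 2.39 times as much as cluster 3 in list 1 and 4.72 times as much in list 2.

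Among the other 7, the order was nearly the same in both lists. Cluster 5 was covered most, at 83.5% in list 1 and 77.8% in list 2. Cluster 6 followed at 76.4% and 69.2%, then cluster 7 at 75.8% and 61.9% and cluster 8 at 73.5% and 60.1%. The 3 smallest shares were close together. Cluster 4 had 68.5% and 54.2%, cluster 2 had 65.1% and 54.3% and cluster 1 had 63.1% and 53.5%. The 5 long-arm clusters were covered more than the 3 short-arm clusters in list 1, while in list 2 cluster 4 (54.2%) stood between cluster 2 and cluster 1. No replicate error exists against which gaps of this size could be read.

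**Figure D1:**
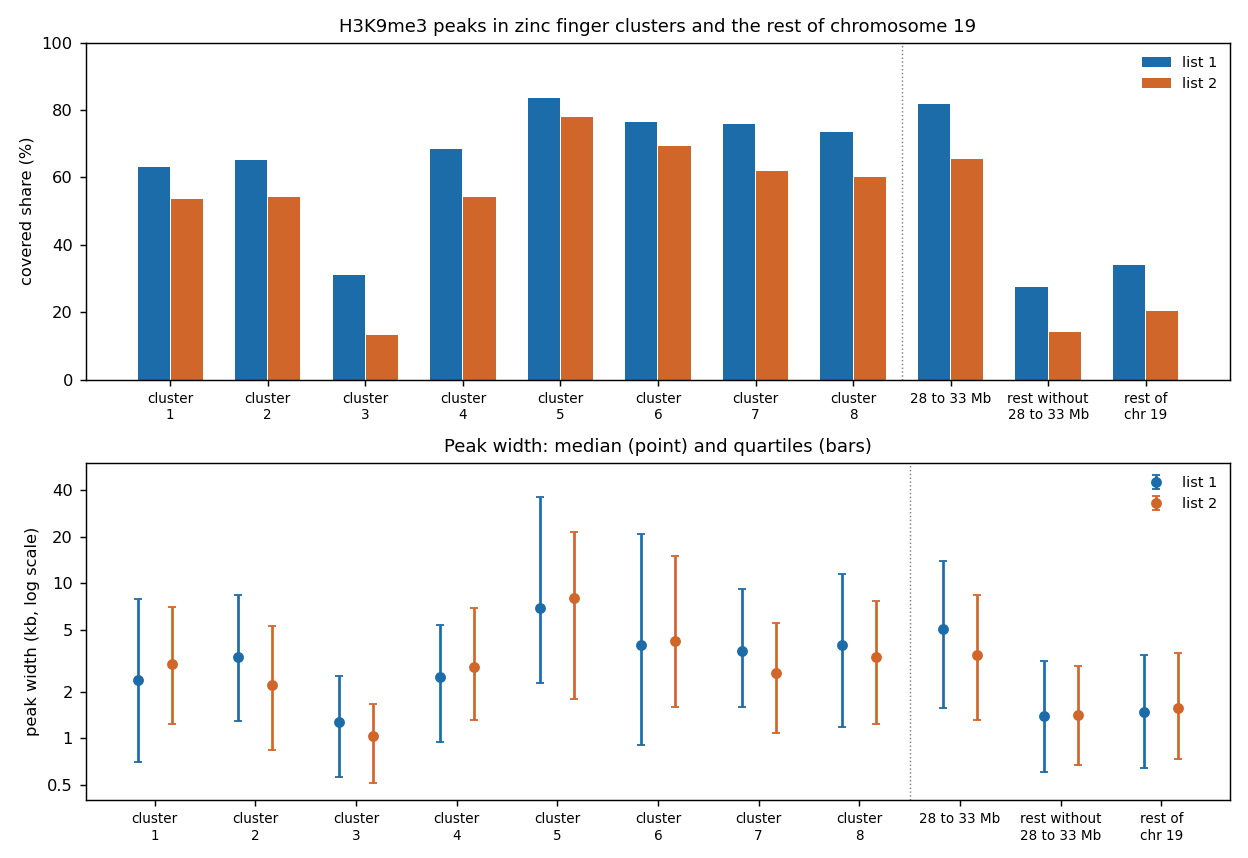
Upper panel: share of base pairs under a peak (%) in each of the 8 zinc finger clusters, in the stretch from 28 to 33 Mb, in the rest without that stretch and in the rest of chromosome 19, with blue bars for list 1 and orange bars for list 2. Lower panel: peak width in kb on a log axis for the same regions, as median (points) and quartiles (vertical bars). Cluster 5 is covered most (83.5% and 77.8%) and cluster 3 least of the clusters (30.9% and 13.3%).

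The rest of chromosome 19 was itself uneven, and this moved the comparison. On the long arm beside the centromere, the 5 Mb between 28 and 33 Mb had 81.8% of their base pairs under peaks in list 1 and 65.5% in list 2. The 7 clusters without cluster 3 had 0.904 times this share in list 1 and 0.961 times in list 2. Cluster 5 exceeded it in both lists, with 1.02 and 1.19 times its share, and cluster 6 in list 2 with 1.06 times. Because the stretch was covered more than the rest as a whole, leaving it out could only raise the ratios. With the stretch left out, the rest was covered 27.3% and 14.1%, and the ratio of all clusters over it was 2.21 in list 1 and 3.36 in list 2. Cluster 3 then had 1.13 times the share of the rest in list 1 and 0.949 times in list 2, so its direction against the rest was not stable.

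Each cluster was also covered more than its own surroundings. Within 500 kb on either side, other clusters and the centromeric stretch left out, the widest contrasts were at clusters 2 and 8. Cluster 2 had 65.1% against 9.75% around it in list 1 and 54.3% against 3.24% in list 2, ratios of 6.68 and 16.8. Cluster 8 had 73.5% against 13.1% in list 1 and 60.1% against 4.51% in list 2, ratios of 5.61 and 13.3, with 612 kb of surroundings because the chromosome ends there. Cluster 5 had 2.65 and 5.22 times the share around it, cluster 6 had 2.51 and 3.91 times, and cluster 1 had 1.70 and 2.69 times. The smallest contrasts among the 7 were 1.46 and 1.75 at cluster 4 and 1.34 and 1.60 at cluster 7, whose surroundings were covered 56.6% in list 1 and 38.8% in list 2. Cluster 3 had 1.67 times the 18.5% on its short-arm side in list 1 and 1.90 times the 7.01% in list 2, its other side being the centromeric stretch.

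Coverage changed over about 200 kb at the borders, which are borders of the rule and not of the mark. Over the 14 borders of the 7 clusters without cluster 3, the bin 200 to 300 kb inside was covered 82.0% on average in list 1 (52.99 to 97.5%) and 72.2% in list 2 (39.1 to 94.8%). The first 100 kb inside averaged 41.3% and 29.1%, and the first 100 kb outside 29.7% and 18.6%. At cluster 2 the first 100 kb inside were nearly bare, at 0.882% and 0.858%, and the next 100 kb were covered 55.8% and 38.1%. At the far end of cluster 8, 97.5% (list 1) and 94.8% (list 2) of the bin 200 to 300 kb inside lay under peaks, against 0.841% and 1.17% of the first 100 kb outside. In RefSeq order the genes after ZNF446, the last one counted by symbol in cluster 8, are SLC27A5, ZBTB45 and TRIM28, the corepressor that KRAB domains recruit. Where these genes lie against the bins was not measured. Between the first 100 kb inside and the first 100 kb outside there was no common direction. At 7 of the 14 borders the inner bin was covered less than the outer one in both lists, and at the other 7 it was covered more in both. Among the lower ones were the start of cluster 7, with 72.1% and 44.5% inside against 74.3% and 54.3% outside, and the end of cluster 1, with 12.8% and 6.85% inside against 32.2% and 18.9% outside.

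**Figure D2:**
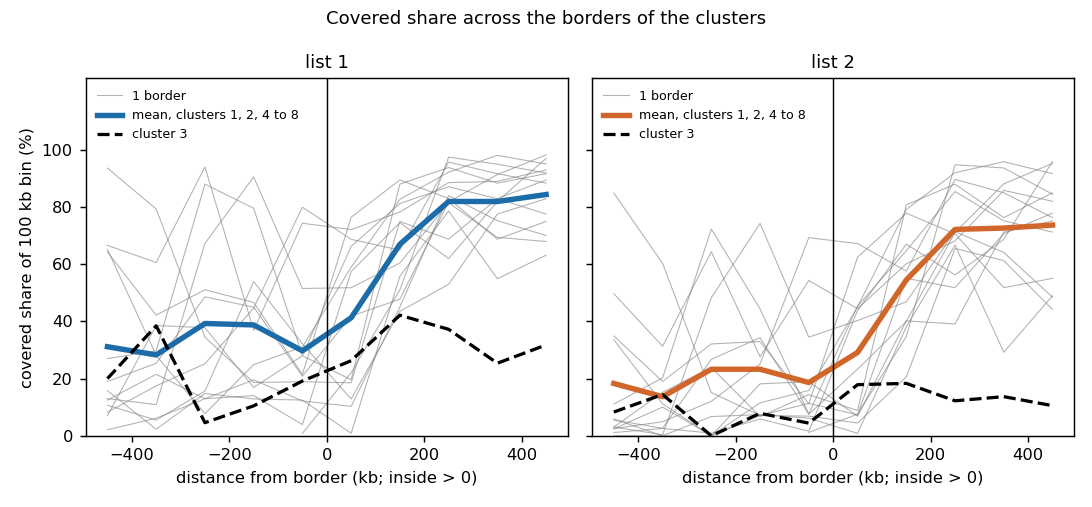
Covered share (%) of 100 kb bins by distance from a cluster border in kb, with distances above 0 inside the cluster, for list 1 (left) and list 2 (right). Grey lines are single borders, and the thick line is their mean over the 14 borders of clusters 1, 2 and 4 to 8. Bins more than 100 kb outside have 13 borders, without the end of cluster 8. The dashed line is the mean over the available borders of cluster 3. The mean lies at 82.0% and 72.2% in the bin 200 to 300 kb inside and at 29.7% and 18.6% in the bin just outside, while cluster 3 reaches at most 42.2% in list 1 and 18.3% in list 2.

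The dense parts filled whole windows. Of the 149 windows of 100 kb in the clusters, 62 (41.6%, Wilson 95% interval 34.0 to 49.6%, counting error only) were covered over 60% in both lists. The share was 11.1% (45 of 406 windows) in the rest of chromosome 19 and 9.03% of all windows on chromosomes 1 to 22 and X. Neighbouring windows share domains and are not independent, so the interval is too narrow. All 62 lay outside cluster 3, where 0 of 47 windows reached the limit, which left 60.8% of the 102 windows of the other 7. Of the 45 windows in the rest, 36 lay between 28 and 33 Mb, and 9 of the remaining 356 windows (2.53%) passed. By cluster the number was 15 of 19 in cluster 5, 6 of 8 in cluster 6, 17 of 29 in cluster 8, 11 of 20 in cluster 7, 6 of 12 in cluster 2, 4 of 8 in cluster 1 and 3 of 6 in cluster 4.

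The densest window, by the lower of the lists, lay in cluster 2, from 12300001 to 12400000, with 97.1% in list 1 and 95.9% in list 2. Cluster 5 held the next 3, which began at 38100001 (98.1% and 95.9%), 37300001 (96.6% and 95.7%) and 37000001 (98.3% and 95.3%). The fifth began at 58700001 in cluster 8 (97.5% and 94.8%). The sparsest windows were mostly in cluster 3. The one that began at 20500001 had 1.35% in list 1 and 0% in list 2, with any unsequenced bases counted in its length. Those that began at 22500001, 22100001 and 23100001 had between 11.4% and 16.8% in list 1, and between 3.02% and 4.09% in list 2. The remaining one was the first window of cluster 2.

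**Figure D3:**
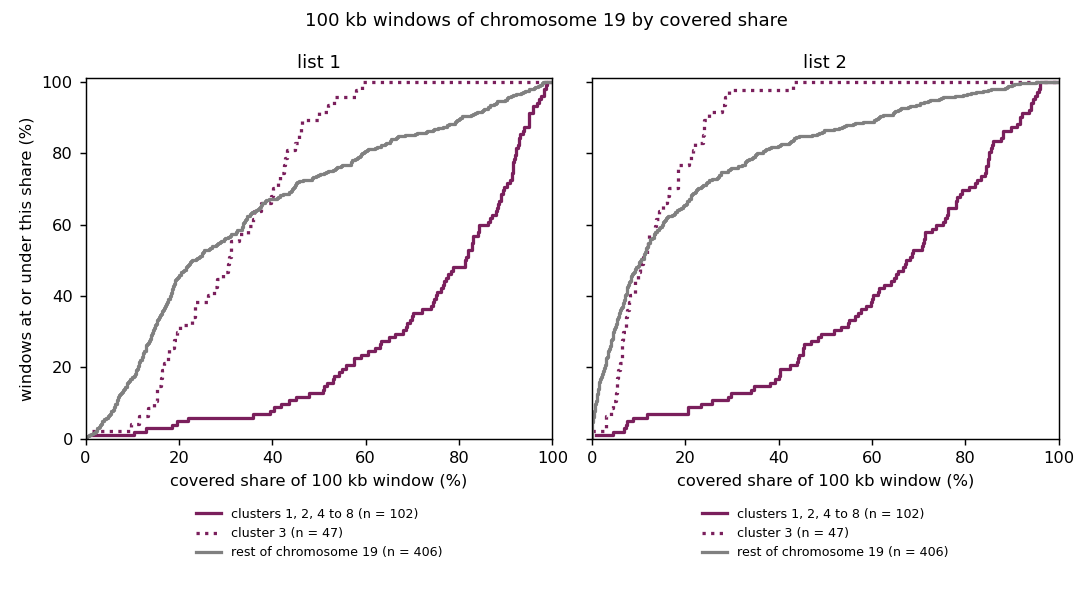
Cumulative share of 100 kb windows (%) at or under a given covered share (%), for list 1 (left) and list 2 (right). The solid purple line is the 102 windows of clusters 1, 2 and 4 to 8, the dotted line the 47 windows of cluster 3 and the grey line the 406 windows of the rest of chromosome 19. The median is 81.4% and 67.7% in the 7 clusters, 30.6% and 10.9% in cluster 3, and 23.2% and 10.5% in the rest.

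Within a cluster, coverage was not uniform. Cluster 5 was covered over 80% in list 1 in 15 of its 19 windows, with a dip to 54.4% in list 1 and 53.3% in list 2 at 1100 kb from its start. Cluster 7 was densest at 800 kb, with 94.9% and 91.0%, and lower in its second part, down to 39.4% and 25.7% at 1400 kb. Cluster 8 had more than 1 dense run. From 800 to 1600 kb windows had between 86.2 and 94.9% in list 1, and between 68.6 and 94.6% in list 2. The next window, at 1600 kb, fell to 57.4% and 34.1%. Windows at 1800, 2000 and 2100 kb had at least 89.5% in list 1. Another dense run held the windows at 2400, 2500 and 2600 kb, the last being the densest of the cluster (97.5% and 94.8%). Low windows lay at 500 kb (40.4% and 11.8%) and at 2200 kb (35.9% and 20.7%). Cluster 3 had no dense run of this kind. Its highest window, at 1300 kb, reached 59.3% in list 1 and 43.0% in list 2. Of its 47 windows, 14 in list 1 and 36 in list 2 were covered under 20%, against 5 and 7 of the 102 windows of the other clusters.

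**Figure D4:**
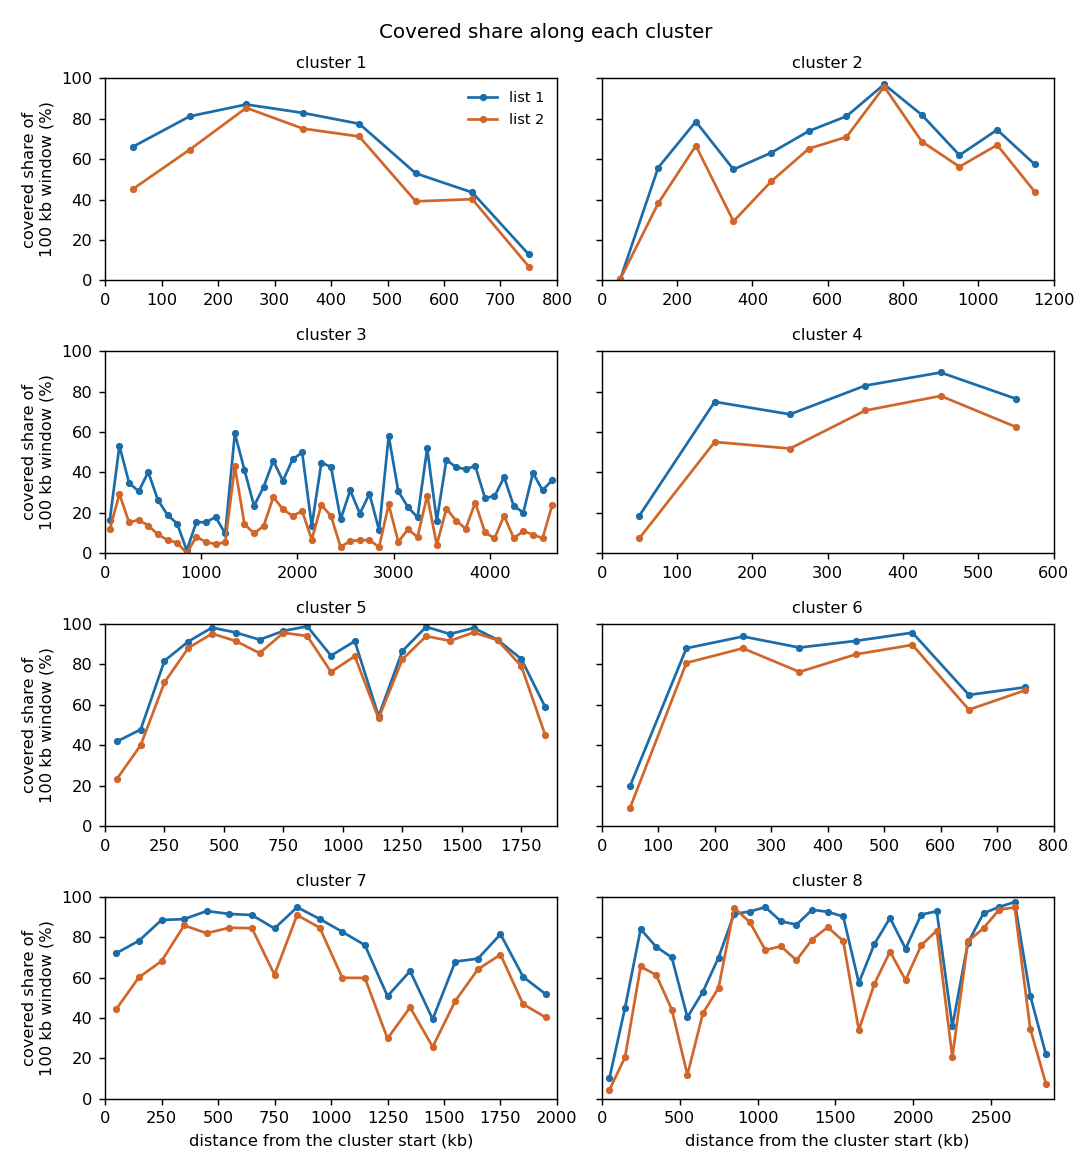
Covered share (%) of each 100 kb window along the 8 clusters by distance from the cluster start in kb, with blue for list 1 and orange for list 2. Clusters 5 to 8 hold long runs of windows over 80% in list 1, while cluster 3 stays at or below 59.3% in list 1 and 43.0% in list 2.

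Apart from cluster 3, peaks in the clusters were wider by median than in the rest in both lists. The median width in the 7 clusters was 3785 bp in list 1, with quartiles at 1171 and 10555 bp, against 1484 bp in the rest, with quartiles at 640 and 3462.5 bp. In list 2 it was 3211 bp, with quartiles at 1167 and 8298 bp, against 1566 bp, with quartiles at 737.5 and 3523 bp. The number of peaks per Mb was 77.0 in these clusters together against 93.3 in the rest in list 1, and 87.2 against 61.3 in list 2. Single clusters differed from this. Clusters 4 and 7 had 1.11 and 1.08 times the number per Mb of the rest in list 1, and cluster 5 had 0.816 times that of the rest in list 2. Cluster 3 held 154 peaks per Mb in list 1 and 97.2 in list 2, above the rest in both lists, with median widths of 1280 bp and 1027 bp, below the rest in both. It supplied 722 of the 1507 cluster peaks of list 1 and 457 of the 1346 of list 2. With cluster 3 counted in, the median width was 1927 bp in list 1 and 1751 bp in list 2. The ratios over the rest were 1.30 and 1.12. All peaks on chromosomes 1 to 22 and X had a median width of 1973 bp in list 1 and 1564 bp in list 2. The clusters with cluster 3 thus lay below this median in list 1, as did the rest at 1484 bp, and above it in list 2. Without cluster 3 the clusters lay above it in both lists.

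Cluster 5 had the widest peaks by median and the fewest per Mb. Its median width was 6974 bp in list 1 and 8021 bp in list 2, with 69 peaks in list 1 and 95 in list 2 on 1.9 Mb. Peaks of at least 10 kb made up 44.9% of its 69 peaks in list 1 (Wilson 95% interval 33.8 to 56.6%, counting error only) and 42.1% of its 95 peaks in list 2 (32.7 to 52.2%). In cluster 6 the shares were 39.1% and 34.0%. In the rest of chromosome 19 they were 7.41% (6.62 to 8.29%) and 6.23% (5.35 to 7.25%), against 9.62% of all peaks of list 1 and 4.45% of all peaks of list 2. In cluster 3 they were 1.39% (10 of 722) and 0.438% (2 of 457). The 3 widest cluster peaks of list 1 all lay in cluster 5, from 37019865 to 37177242 (157 kb), from 37937791 to 38045772 (108 kb) and from 37415806 to 37517923 (102 kb). They were followed by 82.7 kb in cluster 4 and 81.8 kb in cluster 8. The 3 widest of list 2 lay in cluster 5 too, from 38146956 to 38241528 (94.6 kb), from 37065361 to 37157043 (91.7 kb) and from 37862896 to 37937568 (74.7 kb), followed by 74.1 kb in cluster 7 and 72.2 kb in cluster 8. Every one of these 10 peaks was covered at least 87.8% by the other list. The widest peak of chromosome 19 in either list was not in a cluster but between 28 and 33 Mb (185 kb in list 1 and 108 kb in list 2).

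When peaks less than 10 kb apart were joined, most of the length of the clusters lay in long domains. Domains of at least 100 kb held 76.8% of all 8 clusters in list 1 and 53.3% in list 2, against 32.8% and 16.9% of the rest, ratios of 2.34 and 3.16. Without cluster 3 they held 90.8% and 76.8% of the other 7, ratios of 2.76 and 4.55 over the rest, against 96.1% and 81.7% of the stretch from 28 to 33 Mb. With the stretch left out, the rest had 24.0% and 7.77%. Cluster 3 had 46.6% of its length in such domains in list 1 and 2.40% in list 2, where 1 domain reached that length, so its direction against the rest differed between the lists. The number of domains of any length per Mb was 3.73 in list 1 and 6.47 in list 2 for the 7 clusters, 14.3 and 25.7 for cluster 3, and 18.1 and 18.3 for the rest.

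The longest domain of list 2 on all of chromosome 19 lay in cluster 5. It ran from 36810024 to 37752497 (942 kb, 51 peaks, 88.2% of it covered). List 1 had a domain of almost the same extent there, from 36808097 to 37752330 (944 kb, 27 peaks, 93.4% covered). Cluster 6 showed a like match, with 44295294 to 44870913 in list 1 (576 kb) and 44296981 to 44870492 in list 2 (574 kb). Cluster 8 had the longest cluster domain of list 1, from 56633279 to 58309643 (1.68 Mb), where the longest of list 2 ran from 56831249 to 57746871 (916 kb). In cluster 7 list 1 joined from 51855437, before the cluster's start, to 53421910 (1.57 Mb), and list 2 from 52040757 to 52698874 (658 kb). In cluster 2 the domain of list 1 took up 89.5% of the cluster, from 11710580 to 12784494 (1.07 Mb), and that of list 2 ran from 12176752 to 12536736 (360 kb). Cluster 1 had 498 kb in list 1, from 9194791 to 9692926, and 437 kb in list 2, from 9253520 to 9690308. Cluster 4 had 501 kb, from 34989672 to 35490935, and 265 kb, from 35219450 to 35484161. Cluster 3 had 490 kb in list 1, from 21294943 to 21785047, with 43.5% of it covered, and 113 kb in list 2, from 22958388 to 23071394, with 24.4% covered. On the whole chromosome, 8 of the 10 longest domains of list 2 and 5 of the 10 longest of list 1 lay wholly within a cluster, while the longest of list 1 ran from 27782401 to 30189341 (2.41 Mb), outside the clusters.

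Stretches without a peak were measured inside each cluster and cut at its borders, with no such length taken for the rest. The longest in list 1 were 11.6 kb in cluster 7, 13.8 kb in cluster 4, 18.5 kb in cluster 1, 18.9 kb in cluster 6, 37.1 kb in cluster 2, 51.9 kb in cluster 5 and 55.9 kb in cluster 8. In list 2 the longest in each of these clusters were 30.9 to 93.8 kb, and the 30.9 kb of cluster 1 were cut at its end. Cluster 3 had the longest in both lists, 103 kb between 20503172 and 20605675 in list 1 and 112 kb between 20489814 and 20601519 in list 2. Unsequenced bases of hg19 were not taken out and read mapping was not examined, so a stretch without a peak need not lack H3K9me3. Cluster 5 also had its longest gap at nearly the same place in both, between 36756227 and 36808096 in list 1 and between 36756200 and 36810023 in list 2.

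Enrichment per peak, the authors' fold over the peak caller's background, differed less than coverage. All 8 clusters together had a median fold of 1.68 in list 1 and 2.19 in list 2, against 1.64 and 2.17 in the rest. Without cluster 3 the other 7 had a median of 1.82 in list 1 (quartiles 1.63 and 2.05) and 2.32 in list 2 (2.12 and 2.55), where the quartiles of the rest were 1.47 and 1.85 in list 1 and 2.00 and 2.37 in list 2. Clusters 5 and 6 were highest, with medians of 2.11 and 2.02 in list 1 and 2.66 and 2.54 in list 2. Cluster 3 was lowest, at 1.59 and 2.01. Of its peaks 38.6% in list 1 and 28.9% in list 2 lay above the median of all peaks of their list, against 85.5% and 86.3% in cluster 5. The lowest fold of a list, 1.44 in list 1 and 1.90 in list 2, was shared by 20.8% of the peaks of cluster 3 in list 1 and 26.7% in list 2, by 8.28% and 5.62% of the peaks of the other 7 clusters, and by 21.2% and 12.1% of those of the rest.

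Few cluster peaks had a q-value, as the authors gave it, of at most 0.05. In list 1 there were 4 (0.265%, Wilson 95% interval 0.103 to 0.680%), against 17 (0.448%, 0.280 to 0.717%) in the rest and 0.190% of all peaks of the list. In list 2 there were 79 (5.87%, 4.73 to 7.26%), against 100 (4.02%, 3.32 to 4.86%) in the rest and 2.07% of all peaks of the list. In each list the intervals of the clusters and the rest overlap, and they cover counting error only. Without cluster 3 the other 7 had 4 (0.510%, 0.198 to 1.30%) in list 1 and 78 (8.77%, 7.09 to 10.8%) in list 2. The interval of these 7 overlaps that of the rest in list 1 and lies above it in list 2. This split was chosen after seeing the data. In list 2, cluster 5 held 31 of the 79 (32.6% of its peaks), cluster 7 held 19, cluster 6 held 13, cluster 8 held 5, cluster 2 held 4, clusters 1 and 4 held 3 each, and cluster 3 held 1. In list 1 clusters 6 and 7 held 2 each and the others 0.

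The peaks of highest fold in the clusters lay mostly in cluster 6. In list 2 the first 4 were all there, from 44862010 to 44862478 (fold 4.37), from 44370824 to 44381459 (4.31), from 44212280 to 44214253 (4.14) and from 44333535 to 44368855 (3.91), and the fifth was in cluster 5, from 36715857 to 36738104 (3.61). In list 1 the first and second were the peaks of cluster 6 from 44316371 to 44368749 (2.97) and from 44370957 to 44404787 (2.96), both of which overlap a peak of list 2 just named. They were followed by cluster 7 from 52532688 to 52550289 (2.84), cluster 2 from 12085152 to 12085710 (2.82) and cluster 7 from 52484629 to 52510229 (2.82). The 2 narrowest of these peaks each overlapped 1 peak of the other list. The one at 44862010 overlapped a list 1 peak of fold 1.82, and the one at 12085152 a list 2 peak of fold 2.43. The median fold of all peaks was 1.64 in list 1 and 2.12 in list 2, so folds of the lists are not on 1 scale. On chromosomes 1 to 22 and X, 365 peaks of list 1 (0.112%) and 64 of list 2 (0.0242%) lay above the highest cluster fold.

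The lists coincided more closely in the 7 clusters than in cluster 3. The Jaccard index of covered base pairs, shared length over the length covered in either list, was 0.905 in cluster 5, 0.869 in cluster 6, between 0.707 and 0.745 in clusters 1, 2, 4, 7 and 8, and 0.231 in cluster 3. It was 0.778 over the 7 clusters together, against 0.514 in the rest of chromosome 19 and 0.746 from 28 to 33 Mb. In the rest without 28 to 33 Mb, covered 27.3% and 14.1% against 30.9% and 13.3% in cluster 3, it was 0.420. Of the peaks of list 2, 93.9% in the 7 clusters and 74.8% in cluster 3 overlapped list 1, against 90.9% in the rest. Of the peaks of list 1, 74.1% in the 7 clusters and 40.9% in cluster 3 overlapped list 2, against 44.0% in the rest. The index and these shares tend to rise with covered share, so density enters the contrast. No level given by covered share alone was computed.

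The lists end at different limits of enrichment. When list 1 was limited to peaks at or above the lowest −log10 p of list 2, 417 of its 1507 cluster peaks were left. Cluster 5 was then covered 80.4%, cluster 6 71.5%, cluster 4 58.2%, cluster 8 56.5%, cluster 7 55.8%, cluster 2 51.7% and cluster 1 44.8%, against 18.8% in the rest of chromosome 19. Cluster 3 was covered 2.76%, against 13.3% in list 2. Peaks were dropped whole and not called anew, so the lists were still not at a common limit.

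Set among stretches of their own length over the genome, the clusters spread from near the top to the lower part. Chromosomes 1 to 22 and X were tiled in steps of each cluster's length, with tiles that touch a cluster or hold no peak left out. Of the 1492 tiles of the length of cluster 5, 29 (1.94%) were covered more in list 1 and 7 (0.469%) in list 2. For cluster 8 the shares were 6.12% and 2.75% of 981 tiles, for cluster 7 6.32% and 3.09% of 1423, and for cluster 6 8.50% and 2.71% of 3540. For cluster 2 they were 18.9% and 6.90% of 2361 tiles, for cluster 4 17.9% and 8.38% of 4711, and for cluster 1 23.6% and 8.28% of 3540. Of the 602 tiles of the length of cluster 3, 84.1% were covered more in list 1 and 83.4% in list 2.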

How the data were processed

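Libraries of 2 H3K9me3 antibody samples and 2 input samples from U2OS cells were made and sequenced by the authors. Tools named in the submitters' processing notes, with no role or order, are MACS2 2.2.7.1, Bowtie2 2.5.0, Trim Galore 0.6.7 and bcl2fastq 2.17, with hg19 as the build. The sources used here do not give the cutoff, the control, the handling of duplicate reads or any pooling of samples. Per peak, the authors deposited a fold enrichment, which is a ratio over the peak caller's background, a −log10 p and a −log10 q. The score that the authors deposited beside them was not used.

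Covered share is the base pairs under at least 1 peak over the length of a region. Unsequenced bases of hg19 were not taken out of this length, and how uniquely reads map was not examined. Domains joined peaks less than 10 kb apart, and windows were 100 kb. The end of chromosome 19 was the last peak end. Ranks and limits by fold or q were set only within a list. Shares of peaks and windows carry Wilson 95% intervals, which cover counting error only. Depth is unknown and enters no interval. Coverage and joining steps were tested on simulated data. Positions are 1-based hg19.

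The clusters, lists and comparisons were chosen with earlier results of these data known. Peaks named are the 5 of highest fold and the 5 widest of the clusters in each list, windows named are the 5 densest and 5 sparsest by the lower of the lists, and the longest domain and peak-free stretch is given for each cluster. Genes were named only as background, since no annotation on hg19 was used here. Splitting off cluster 3 and ranking among tiles were chosen after seeing the data. Values were computed in Python 3.11.15 with pandas 2.3.3, numpy 2.4.6 and scipy 1.17.1, and drawn with matplotlib 3.10.9.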

Additional observations from a re-analysis of the deposited data

How the results depend on the processing

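No paired analysis was possible because neither list could be tied to a sample or a replicate number. Of 100 ratios of clusters over rest recomputed under the alternatives for covered share, median width and domain share, 98 stayed above 1. The other 2 were at 0, with −log10 q of at least 2, for the covered share of list 1, whose clusters held 0 of the 1 such peak on chromosome 19, and for the domain share of list 2. At that limit the covered share of list 2 had a ratio of 2.86 and its width 2.46, no window was covered over 60% in both lists (0%), and list 1 gave no ratio of widths or domains. The 100 ratios were not independent. Limiting list 1 could not change list 2, and base pairs in both lists gave the same ratios for list 1 and list 2. Values with 1 cluster left out share the other clusters. Leaving out each cluster in turn gave covered ratios of 1.67 to 2.17 in list 1 and 2.10 to 3.09 in list 2, width ratios of 1.17 to 2.55 and 1.01 to 2.05, domain ratios of 2.23 to 2.76 and 2.86 to 4.55, and 36.2 to 60.8% of windows, with the highest value of each without cluster 3.

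For peaks above the median fold the ratios of list 1 were 1.92 (covered), 1.32 (width) and 3.06 (domains), and those of list 2 were 2.55, 1.44 and 4.73. With list 1 at the limit of list 2 those of list 1 were 2.26, 1.90 and 4.40. With base pairs in both lists they were 2.36, 1.13 and 3.37. With the rest without 28 to 33 Mb they were 2.21, 1.38 and 3.21 in list 1 and 3.36, 1.24 and 6.87 in list 2. With 500 kb on either side as the rest they were 1.87, 1.36 and 2.50 in list 1 and 2.55, 1.20 and 3.52 in list 2. Borders moved inwards by 100 kb gave 1.85, 1.35 and 2.44 in list 1, and 2.43 and 3.32 for coverage and domains in list 2. Borders moved outwards by 100 kb gave 1.68, 1.22 and 2.19 in list 1 and 2.17, 1.10 and 2.96 in list 2. Peaks assigned by midpoint had a width ratio of 1.29 in list 1. Joining distances of 3 and 25 kb gave domain ratios of 3.08 and 1.31 in list 1 and 7.09 and 2.29 in list 2. With a threshold of 80% the share of windows was 20.8%. The strict q (0%) and leaving out cluster 3 (60.8%) also took it outside the counting interval. The other alternatives for windows stayed within that interval, and those that changed only the rest could not move the share. The cause of these differences was not tested. Unknown depth limits every value at the strict q, where few peaks were left.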

Other observations

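The centromeric stretch from 24.4 to 28 Mb, left out of both sides, held 54 peaks of list 1 and 48 of list 2, which covered 7.99% and 5.20% of it. The highest folds there were 2.88 in list 1 and 3.46 in list 2.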
